A study of Mus musculus with 21 samples.

Results

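Sox7, Sox17, Sox18, Foxc1, Foxc2, Foxf1 and Foxo1 are 7 transcription factor genes with known roles in vessels and their precursors. They were taken by gene symbol from 2 tables of gene expression. Each of the 7 was found once in both, among 27968 genes of the sorted-cell table and 22899 genes of the coculture table, of which 19321 held values.

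The study differentiated mouse pluripotent stem cells (mouse PSCs) towards blood and measured RNA by sequencing in 21 libraries, 3 per group. The coculture table compared total cells, sorted on day 5, from colonies made in a 3D self-assembling peptide and then plated on OP9 cells (3D+OP9) or on gelatin (3D+0.1% gelatin), both labelled as the 129/ola strain. OP9 is a mouse bone marrow stromal line, so any RNA it left in the sample was counted on the same genes. The sorted-cell table held embryonic stem cells labelled 129/ola and kept on feeder cells (mESC), the day 5 fractions D5-LSKCD201+ and D5-LSKCD201- from the 3D+OP9 culture, and CD201+ cells of the LSK gate from C57BL/6 fetal liver at E12.5 (FL-LSKCD201+) and from bone marrow of C57BL/6 mice aged 6 to 8 weeks (BM-LSKCD201+). LSK stands for Lin-Sca-1+c-kit+, the surface profile of mouse blood stem and progenitor cells, and CD201 is the endothelial protein C receptor, carried by blood stem cells and by endothelium. The study's methods name antibodies to c-kit, Lineage and CD201 for the sort and one to Sca-1 for analysis alone, so Sca-1 as part of the sort rests on the labels. The labels name no transgene or drug in these groups. Per the study's methods, the OP9 layer had been treated with mitomycin C, which stops cells dividing, and the coculture medium held the cytokines SCF, IL-3 and Flt3 ligand. The methods name embryonic stem cells of C57BL/6 as well as 129/ola origin, so the strain of the cultured cells is given here from the labels. By the labels, strain changed together with culture or animal origin, so strain and origin cannot be told apart in any comparison of the day 5 or mESC groups with fetal liver or bone marrow. The study calls the 3 libraries of each sorted-cell group biological replicates. The labels did not say which cultures or animals any library came from. The tests measured the spread between these libraries, which for the coculture groups may be technical. The study's legend for its coculture figure names 3 independent experiments but does not tie them to these libraries.

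Values were FPKM, which count sequenced fragments relative to transcript length and to library size, so genes can be set side by side within a library. FPKM summed to 483263 to 508307 per coculture library and 508622 to 620332 per sorted-cell library. The number of reads per library is unknown. All of 10 housekeeping genes were above 0 in each library. A gene was tested where its mean over the compared libraries reached 0.5 FPKM, with limma on log2(FPKM + 1), and was called higher or lower at a Benjamini-Hochberg adjusted p under 0.05 with a log2 difference of at least 1. All folds written as log2 are on this log2(FPKM + 1) scale, which understates changes of low genes. The 2 tables were normalized separately and were never tested against each other. Of the 56 member tests over 11 comparisons, 20 passed the filter through the higher group alone, with the other group's mean under 0.5 FPKM, and 17 of these were called. Such genes had to differ to be tested, so nothing is read from the share of tested members that was called.

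SoxF proteins (Sox7, Sox17 and Sox18) are close relatives that bind DNA through an HMG box and work partly in place of each other in endothelial cells, where they act with Notch, ETS and MEF2 factors in the making of arteries and lymphatic vessels. Sox17 has further known roles in definitive endoderm and in fetal blood stem cells. Among the Forkhead factors, Foxc1 and Foxc2 act in mesoderm and in developing vessels, Foxf1 acts in the mesoderm that surrounds the gut and in lung vessels, and Foxo1 is the target that AKT kinase keeps out of the nucleus and that restrains growth in many cells, endothelium among them.

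In GRCm38, with the GENCODE M21 annotation, Sox7 lies at chr14:63943673-63950732 on the plus strand with 2 exons. Sox17 lies at chr1:4490931-4497354 and Sox18 at chr2:181669836-181671640, both on the minus strand. Foxc1 is a single-exon gene at chr13:31806633-31812476, and Foxo1 spans chr3:52268336-52353221 with 3 exons, both on the plus strand. Foxf1 (chr8:121084386-121088144) and Foxc2 (chr8:121116171-121118895, 1 exon) are neighbours on the plus strand with Mthfsd, 3484 bases beyond Foxf1, between them. The sorted-cell table listed both under 1 merged locus of 4435366 bases that held 116 genes. Foxo1 and Sox17 also shared a listed locus with other genes. Exons of the noncoding genes Gm20402 and Gm37587 on the opposite strand overlapped them by 674 and 804 bases. The miRNA gene Gm27530, also on the opposite strand, overlapped Foxf1 by 98 bases. Whether reads were counted by strand is not given in the sources used here, so reads from these overlaps cannot be assigned. Gm20402 reached 2.39 FPKM and Gm37587 reached 0.705 FPKM at most. The listed locus of Foxc1, chr13:31806690-31810643, did not hold the whole annotated gene.

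RefSeq promoter windows were matched for 2 of the 7 genes, Foxc1 and Foxo1, and these windows are shown because they were the ones matched. They belong to 2 Forkhead genes of unlike pattern, with Foxc1 near 0 in the sorted cells outside the day 5 fractions and Foxo1 present in every library. Each line gives the 250 bases before the RefSeq start site, on the plus strand of GRCm38.p6, at chr13:31806396-31806645 and chr3:52268087-52268336. RefSeq and GENCODE place the start of Foxc1 a few bases apart.
Foxc1: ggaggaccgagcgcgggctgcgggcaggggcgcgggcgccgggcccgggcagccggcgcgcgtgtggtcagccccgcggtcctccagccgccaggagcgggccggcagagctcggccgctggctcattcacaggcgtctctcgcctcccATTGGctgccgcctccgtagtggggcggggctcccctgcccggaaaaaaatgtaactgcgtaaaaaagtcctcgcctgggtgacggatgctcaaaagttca
Foxo1: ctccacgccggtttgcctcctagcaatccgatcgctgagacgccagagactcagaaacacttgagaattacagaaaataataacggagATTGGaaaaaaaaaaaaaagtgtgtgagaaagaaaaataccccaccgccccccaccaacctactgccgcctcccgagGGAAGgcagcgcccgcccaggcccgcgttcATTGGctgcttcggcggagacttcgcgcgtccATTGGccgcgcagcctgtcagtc
Capitals mark exact matches, on either strand, to 5 short motifs, namely the Forkhead motif TGTTTAC, the SOX motif ACAAT, the ETS motif GGAAG, the motif AGATAA bound by GATA factors and the box CCAAT. The Foxc1 window held 1 CCAAT match and the Foxo1 window held 3, besides 1 GGAAG match. CCAAT was added after the windows had been seen. Among 32851 RefSeq windows of this length, 33.8% held CCAAT, 64.1% GGAAG, 27.7% ACAAT, 10.0% AGATAA and 3.2% TGTTTAC. The Foxc1 window had a GC content of 70.8% with 29 CpG dinucleotides, and 91.7% of windows had a lower GC content. The Foxo1 window had a GC content of 56.0% with 20 CpG, against medians of 52.4% and 6.

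Which cells the sorted fractions held bears on every level that follows. Summed FPKM of 12 endothelial markers was 3499 to 3556 in D5-LSKCD201+, with 118 to 140 in the CD201- fraction, 222 to 289 in FL-LSKCD201+, 239 to 244 in BM-LSKCD201+ and 43.8 to 47.9 in mESC. For 14 blood markers the sums were 97.1 to 103, 39.2 to 41.2, 1794 to 2168, 2552 to 2797 and 28.6 to 30.1 in the same order. Ptprc (CD45), which blood cells carry, was at a mean of 0.409 FPKM in D5-LSKCD201+ against 66.8 in BM-LSKCD201+ and 43.5 in FL-LSKCD201+, and Spn, Cd48 and Flt3 were at 0.0867, 0.0495 and 0.16 in D5-LSKCD201+, although the megakaryocyte and early blood gene Itga2b was at 45.2. The 10 pluripotency markers summed to 3880 to 4472 in D5-LSKCD201-, 7169 to 7751 in mESC and 87.6 to 97.7 in D5-LSKCD201+. The day 5 groups, labelled LSK, thus had the defining blood markers near 0, and they are named here by their labels alone. Fewer cells of a type and less RNA per cell cannot be told apart in these bulk libraries.

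Sox7, Sox18 and Foxc2 were far higher in D5-LSKCD201+ than in D5-LSKCD201-, and Foxo1 was higher by a smaller margin, whereas Sox17 was high in both fractions. Of the 7 genes, 4 were called higher, against 10.8% of all 13691 genes tested, and none lower, against 13.9%. In all 7 the libraries of the fractions were fully separated, as in 73.6% of all genes tested.

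Sox18 stood at 232.6, 232.7 and 234.6 FPKM in the 3 D5-LSKCD201+ libraries, far from the 9.02, 10.2 and 9.52 of D5-LSKCD201-. The difference was 24.4-fold between means, or 4.47 on the log2 scale (SE 0.06, limma adjusted p = 3.34e-08). Sox7 read 70.4, 71.8 and 68.1 FPKM in D5-LSKCD201+ against 5.40, 4.82 and 5.24 in the CD201- fraction, a 13.6-fold difference (log2 3.53, SE 0.07, limma adjusted p = 5.65e-08). In both genes the lowest D5-LSKCD201+ library was many times the highest D5-LSKCD201- library.

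Sox17 behaved otherwise. It read 128, 115 and 121 FPKM in D5-LSKCD201+ against 89.8, 105 and 101 in the CD201- fraction. The groups did not overlap and the test passed on p alone (limma adjusted p = 0.00981), but the difference was 1.23-fold (log2 0.30, SE 0.08), under the threshold for a call. Against mESC, where it was at 0.599 ± 0.0995 (SD, n = 3), Sox17 was called higher in both fractions, by 6.26 in the CD201+ fraction (limma adjusted p = 1.03e-11) and by 5.96 in the CD201- fraction (limma adjusted p = 1.28e-07). Among the 13596 genes tested between D5-LSKCD201- and mESC, the Sox17 difference ranked 5 by size. In that comparison, where 10.9% of all genes were called higher, Sox7 was the other member called (2.28, limma adjusted p = 2.38e-06), 2 were not called and 3 were not tested. Sox7 passed the filter through D5-LSKCD201- alone. Sox18 differed there by 0.92 (limma adjusted p = 0.000156) and was not called, although with a pseudocount of 0.1 it passed the fold threshold (1.05).

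Sox17 is known in endoderm as well as in endothelium, and markers of both were present in D5-LSKCD201-. The 13 endoderm markers summed to 228 to 258 FPKM there and to 204 to 211 in D5-LSKCD201+, with different genes behind the sums. Foxa2 (17.9 against 0.656), Foxa1 (8.35 against 0.195) and Epcam (111 against 1.38) had higher means in D5-LSKCD201-. Dab2, the other way, was at 45.8 against 146, and Gata4 (32.6 against 35.5) and Gata6 (14.9 against 20) were near each other. Epcam was also at 73.7 in mESC, where the 13 endoderm markers summed to 74 to 81.3. The part of endoderm cells in the Sox17 level of D5-LSKCD201- was not tested. Set against the summed endothelial markers of the same library, Sox17 amounted to 75.7% ± 12.3 (SD, n = 3) in D5-LSKCD201- but to 3.44% ± 0.2 in D5-LSKCD201+. The same measure was close between the fractions for Sox18, at 7.35% ± 1.13 and 6.6% ± 0.0894, and was 3.93% ± 0.18 and 1.98% ± 0.0366 for Sox7. This ratio was chosen after the values had been seen.

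**Figure D1:**
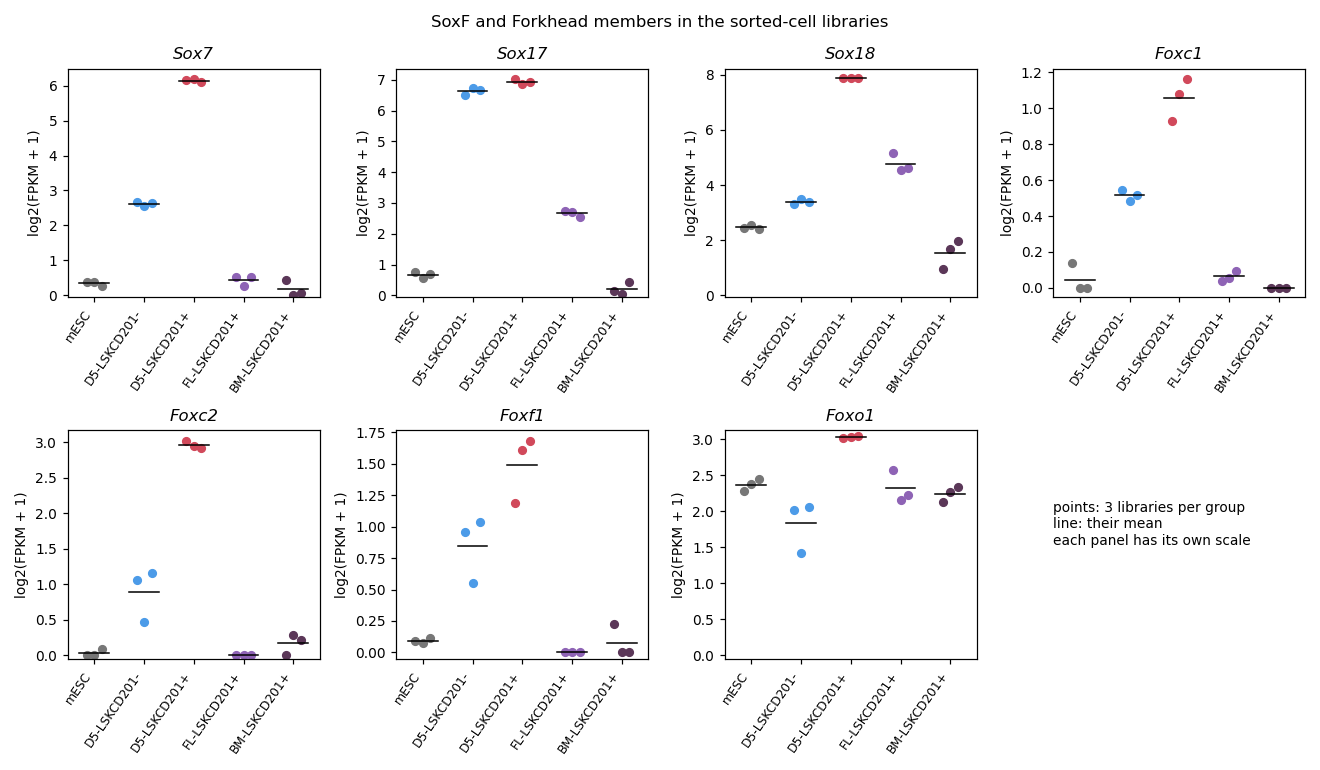
Level of each gene in the 15 sorted-cell libraries, as log2(FPKM + 1), with 1 point per library and a line at the mean of the 3 libraries of a group; each panel has its own vertical scale. All genes have their highest points in D5-LSKCD201+, and the D5-LSKCD201- points come close to them in Sox17, at high levels, and in Foxf1, at low levels.

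The 3 SoxF genes together gave a mean of 425 ± 6.12 FPKM (SD, n = 3) in D5-LSKCD201+, of 113 ± 8.18 in the CD201- fraction, 32.6 ± 7.52 in FL-LSKCD201+, 5.44 ± 0.27 in mESC and 2.33 ± 0.936 in BM-LSKCD201+. The groups differed in which gene carried this sum. In D5-LSKCD201+ the shares were 54.9% for Sox18, 28.6% for Sox17 and 16.5% for Sox7. In D5-LSKCD201- Sox17 held 87.0% of the sum, between 86.2% and 87.5% in each library. Sox18 held 82.2% in FL-LSKCD201+, 84.1% in mESC and 84.5% in BM-LSKCD201+, where the sum was so low that the Sox18 share ran from 67.7% to 97.9%.

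**Figure D2:**
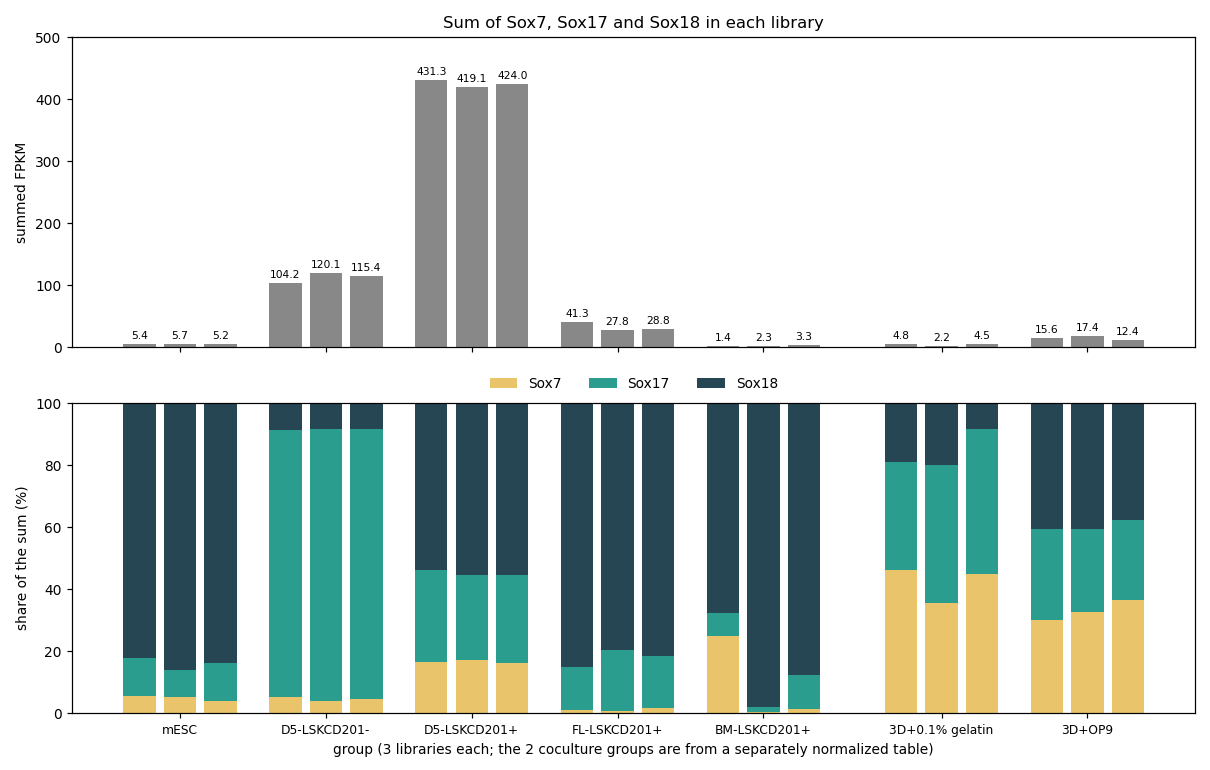
Summed FPKM of Sox7, Sox17 and Sox18 in each of the 21 libraries (upper panel) and the percentage of that sum held by each gene (lower panel), with 1 bar per library. Sox17 fills most of the D5-LSKCD201- bars, Sox18 most of the FL-LSKCD201+, BM-LSKCD201+ and mESC bars, and all 3 genes are visible in D5-LSKCD201+.

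SoxF genes also made up most of the summed Sox family in the sorted day 5 fractions, but not in the total day 5 cells, where Sox2 alone (57.2 FPKM in 3D+OP9 and 77.2 in gelatin) was above the SoxF sum (15.2 and 3.87). Of the summed FPKM of 19 Sox genes, the 3 SoxF genes made up 93.4% ± 1.2 (SD, n = 3) in D5-LSKCD201+, 57.6% ± 9.83 in the CD201- fraction, 29.8% ± 6.03 in FL-LSKCD201+, 4.84% ± 0.427 in mESC and 1.73% ± 0.704 in BM-LSKCD201+. The leading Sox gene by mean level was Sox18 (233 FPKM) in the CD201+ fraction, Sox17 (98.5) in the CD201- fraction, Sox4 in FL-LSKCD201+ (62.4) and BM-LSKCD201+ (114), and Sox2, a pluripotency factor, in mESC (67.8). Of 11 other Sox genes tested between the day 5 fractions, 4 were called lower in D5-LSKCD201+, among them Sox15 (0.125 against 23.8 FPKM, log2 -4.46), Sox2 (-3.80) and Sox3 (-3.23), and 1, Sox6, was called higher (4.68 against 0.889 FPKM, log2 1.60), beside 13.9% and 10.8% of all genes. Their median difference was -0.37, beside -0.12 over all genes tested.

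Between the CD201+ cells of fetal liver and bone marrow, Sox17 and Sox18 were higher in fetal liver, and no other member was called. Of the 7 members, 2 were called, 1 was not and 4 were too low to be tested, in a comparison where 7.78% of all 13503 genes were called higher. Sox17 passed the filter through FL-LSKCD201+ alone. Sox17, known for its part in fetal blood stem cells, read 5.67, 5.46 and 4.82 FPKM in FL-LSKCD201+ and 0.105, 0.0362 and 0.359 in BM-LSKCD201+. Every fetal liver library was above every bone marrow library, and the difference was 2.44 on the log2 scale (SE 0.14, limma adjusted p = 1.68e-05). Sox18 read 35.2, 22.1 and 23.5 in FL-LSKCD201+ and 0.967, 2.23 and 2.89 in BM-LSKCD201+ (log2 3.23, SE 0.28, limma adjusted p = 8.77e-05). Sox7 was low in both, at 0.353 ± 0.134 and 0.137 ± 0.19 (SD, n = 3), with overlapping values. Markers of other cells moved as well. Sums of 10 erythroid markers were 436 to 601 FPKM in fetal liver against 14.9 to 21.5 in bone marrow, and those of the 13 endoderm markers were 287 to 449 against 23.8 to 28.2, with the liver genes Afp (240 against 7.3), Apoa1 (119 against 0.246) and Ttr (23.1 against 0.0249) in front. The summed endothelial markers, given above, overlapped, but single genes did not. Cdh5 (1.13 against 0.0359), Nos3 (1.18 against 0.0606), Plvap (9.17 against 2.84), Tek (9.08 against 2.49) and Esam (85.1 against 42) were above bone marrow in every fetal liver library, and Pecam1 (17.2 against 33.5) and Eng (47.7 against 79.9) were below it. The part of other cells in the Sox17 and Sox18 differences was not tested.

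Both SoxF genes of fetal liver were above mESC as well, Sox17 by 1.98 (limma adjusted p = 1.81e-06) and Sox18 by 2.30 (limma adjusted p = 1.63e-05), in a comparison where 24.2% of genes were called higher. In bone marrow Sox18 lay below mESC by a log2 difference of -0.94 (limma adjusted p = 0.00616), just short of the fold threshold. Sox18 and Foxo1 were the members tested there, and neither was called, where 53.1% of all genes were. Sox18 was called lower without BM-LSKCD201+ replicate 2 (-1.01) or 3 (-1.145) and with a pseudocount of 0.1 (-1.26). It was also called lower after quantile normalization (-1.35) and after rescaling to equal sums (-1.06). Without a library the difference ran from -1.145 to -0.653. BM-LSKCD201+ replicate 1, lowest in Sox18 (0.967 against 2.23 and 2.89), also stood apart in Klf1 (1.28 against 7.9 and 9.3) and Dppa5a (0 against 5.37 and 8.04). Whether this bears on Sox18 was not tested.

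Against both animal populations the day 5 CD201+ fraction had more of all 3 SoxF RNAs. Of the 7 genes, 5 were called higher in D5-LSKCD201+ than in FL-LSKCD201+, where 15.1% of all genes were, and 6 than in BM-LSKCD201+, where 17.5% were. Of the 5, Sox7, Foxc2 and Foxf1 passed the filter through D5-LSKCD201+ alone. Of the 6, Sox7, Sox17, Foxc1, Foxc2 and Foxf1 did. Nothing is read from these counts. All 7 had fully separated libraries in both comparisons, as had 76.6% and 85.3% of all genes. Sox7 exceeded fetal liver by 5.72, Sox17 by 4.28 and Sox18 by 3.10 on the log2 scale, with the largest limma adjusted p at 4.73e-06. Over bone marrow the differences were 5.98, 6.72 and 6.33, with the largest limma adjusted p at 1.53e-07. The day 5 CD201- fraction differed in direction by gene. Sox17 was 3.98 higher there than in fetal liver (limma adjusted p = 2.46e-07) and Sox7 2.19 higher (limma adjusted p = 4.16e-06), but Sox18 was 1.38 lower on the log2 scale, at 9.57 ± 0.576 against 26.9 ± 7.17 FPKM (limma adjusted p = 0.000368). In that comparison 18.6% of all genes were called higher and 18.7% lower, and Sox7 passed the filter through D5-LSKCD201- alone. Against bone marrow the 3 SoxF genes were called higher in D5-LSKCD201-, where 23% of all genes were, and of these Sox7 and Sox17 had bone marrow means under the filter. The comparisons of D5-LSKCD201+ share its 3 libraries, as do those of each other group.

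Ordered by mean level, Sox7 ran D5-LSKCD201+, D5-LSKCD201-, FL-LSKCD201+, mESC, BM-LSKCD201+, and the last 3 overlapped between neighbours. Sox17 had the same order, with its bone marrow values all below those of mESC but too low to be tested. Sox18 ran D5-LSKCD201+, FL-LSKCD201+, D5-LSKCD201-, mESC, BM-LSKCD201+ with no overlap between any neighbours.

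**Figure D3:**
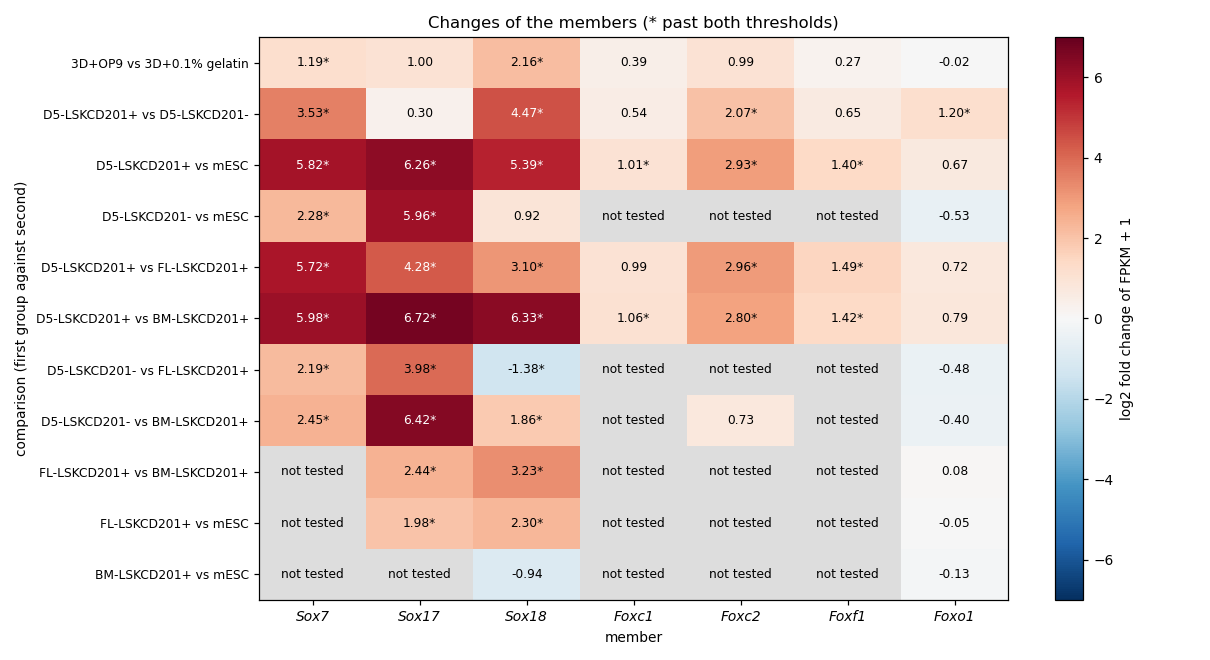
Difference in log2(FPKM + 1) of each gene in each of the 11 comparisons, the group named on the left minus the group named after it, with an asterisk where the gene was called and grey where its mean was under 0.5 FPKM. The rows of D5-LSKCD201+ against mESC, FL-LSKCD201+ and BM-LSKCD201+ are red for the SoxF genes and Foxc2, and the Foxo1 column stays between -0.53 and 1.20.

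In the total day 5 cells, Sox18 and Sox7 were higher in 3D+OP9 than in 3D+0.1% gelatin, and the other 5 members were not called. These 2 compare with 2.11% of all 12958 genes called higher. Sox18 read 6.34, 7.09 and 4.7 FPKM in 3D+OP9 and 0.91, 0.45 and 0.38 in 3D+0.1% gelatin, 10.4-fold between means (log2 2.16, SE 0.19, limma adjusted p = 0.00138). Sox7 read 4.69, 5.68 and 4.52 against 2.23, 0.8 and 2.03 (log2 1.19, SE 0.23, limma adjusted p = 0.0235). For both, and for Sox17, every 3D+OP9 library was above every gelatin library, and these 3 of the 7 members compare with 28.7% of all genes whose libraries did not overlap.

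The Sox7 call was not held by every set of libraries. Without 3D+OP9 replicate 1 or 2, or gelatin replicate 3, its limma adjusted p was 0.0774, 0.0943 and 0.0521, and without gelatin replicate 2 the difference was 0.93. Sox17, at 4.59, 4.65 and 3.21 FPKM against 1.68, 1.0 and 2.12, differed by 0.997 (SE 0.20, limma adjusted p = 0.0272), just under the fold threshold, and passed it without 3D+OP9 replicate 3 or gelatin replicate 3 (both 1.14) and with a pseudocount of 0.1 (1.36). Summed, the SoxF genes gave 15.2 ± 2.53 FPKM with OP9 (SD, n = 3) against 3.87 ± 1.41 on gelatin, with Sox18 at 39.7% and 15.8% of it.

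The summed endothelial markers moved with these genes. They came to 117 to 137 FPKM in 3D+OP9 and 17.9 to 28.1 in gelatin, so Sox18 was 4.78% ± 0.902 (SD, n = 3) of them with OP9 against 2.51% ± 0.732 on gelatin, and Sox7 was 3.92% ± 0.276 and 7.29% ± 2.55. The 14 blood markers summed to 26 to 38.6 against 10.8 to 11.8, but not all went that way. Itga2b (7 against 0.4) and Laptm5 (6.4 against 0.337) had higher means with OP9, Coro1a (2.26 against 4.31) and Flt3 (0.16 against 0.293) had lower ones, and Ptprc (0.04 against 0.00333) and Cd48 (0.0167 against 0) were near 0 in both. The 14 stromal markers, which OP9 cells may carry, summed to 358 to 527 against 259 to 383. Erythroid markers, 10 in number, summed to 243 to 761 against 49.2 to 59.8, with the embryonic globin gene Hbb-bh1 at 242 against 2.48. The 13 endoderm markers summed to 109 to 114 against 111 to 191. Gelatin replicate 3, highest of its group in Sox17 (2.12 FPKM), stood apart in Ttr (11.8 against 0.48 and 0.34) and Dab2 (47.6 against 6.51 and 7.33). It did not in Gata6 (9.95 against 13.3 and 12.1) or Foxa1 (1.08 against 0.96 and 1.43). The part of cell makeup or of OP9 RNA in the SoxF differences was not tested.

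**Figure D4:**
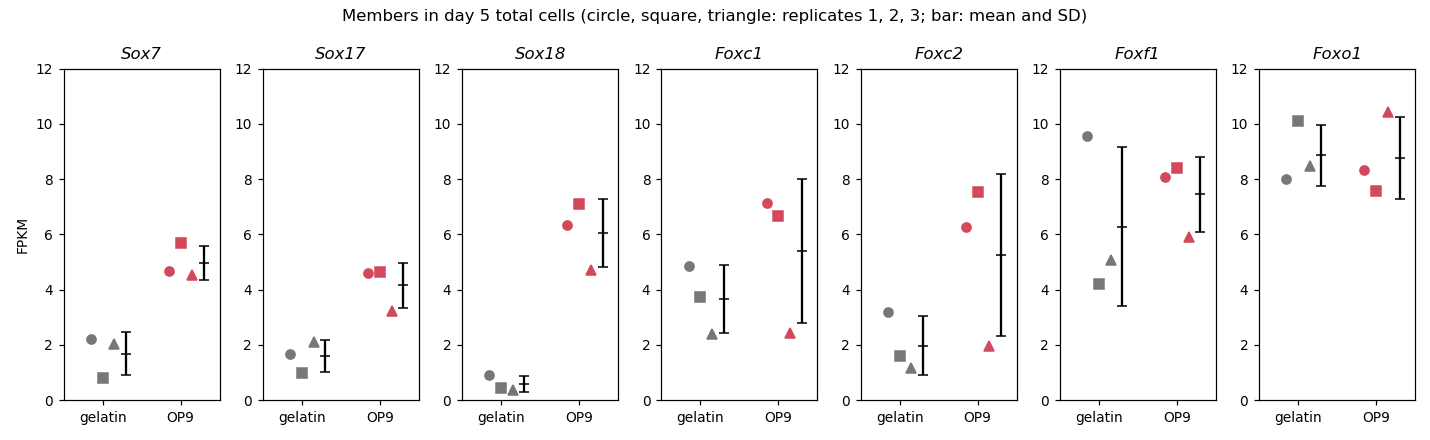
FPKM of each gene in the 6 coculture libraries, with circle, square and triangle for replicates 1, 2 and 3 and bars for mean and SD beside the points. The 3 SoxF genes have no overlap between the cultures, whereas the Forkhead genes do, and 3D+OP9 replicate 3 is low for Foxc1 and Foxc2.

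Most tested genes of a list of SoxF partners and targets in vessels were called higher in D5-LSKCD201+ than in D5-LSKCD201-. The list was chosen with earlier results of these data known, so its counts are a description. The counts of different comparisons were not tested against each other. From a list of 37 such genes, 36 were tested between the day 5 fractions, and 31 were called higher in D5-LSKCD201+ and 1 lower, beside 10.8% and 13.9% of all genes, with a median difference of 3.15 beside -0.12 over all genes. Gja5 (connexin 40, an arterial gap junction gene) was at 135 ± 2.11 against 1.61 ± 0.883 FPKM (SD, n = 3; log2 5.76). Tie1 (5.08), the tight junction gene Cldn5 (5.04) and the nitric oxide synthase gene Nos3 (4.85) followed. Rbpj, the DNA-binding partner of Notch, was the gene called lower (-1.30). The list shared 9 genes with the 12 endothelial markers, and of the 27 tested genes outside them 22 were called higher and 1 lower, with a median of 2.42. These 27 are vessel genes as well, and the endothelial markers summed to 3499 to 3556 FPKM in D5-LSKCD201+ against 118 to 140 in D5-LSKCD201-. The part of endothelial content in the counts of this list was not tested. In the total cells 15 of 36 were called higher in 3D+OP9, beside 2.11% of all genes, none lower and 21 not called, with a median of 1 beside 0.01, led by Cdh5 (28.5 against 1.73 FPKM, log2 3.49), Tie1 (2.93), Pecam1 (2.65) and Tek (2.49). Of the 27 outside the markers, 8 were called higher. In fetal liver against bone marrow, where Sox17 and Sox18 were both higher, 5 of 25 tested genes of the list were called higher and 1 lower, beside 7.78% and 11.3% of all genes, with a median of -0.02 beside -0.13. Rasip1, a vessel tube gene, was among the 5 (29.4 ± 6.42 against 1.86 ± 0.376 FPKM, log2 3.40, limma adjusted p = 9.02e-06).

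The mesodermal Forkhead genes were low in the sorted cells, and Foxc2 had the clearest difference. Foxc2 read 7.10, 6.72 and 6.57 FPKM in D5-LSKCD201+ against 1.08, 0.380 and 1.23 in the CD201- fraction, 7.56-fold between means (log2 2.07, SE 0.19, limma adjusted p = 5.35e-05). It was listed at 0 in all 3 FL-LSKCD201+ libraries and in 2 of 3 mESC libraries, and reached 0.217 at most in BM-LSKCD201+. Every D5-LSKCD201+ library was thus above every library of the other 4 groups. The 14 stromal and mesenchymal markers had their highest sums in the same group, at 386 to 416 FPKM in D5-LSKCD201+, 264 to 272 in the CD201- fraction, 45.8 to 47.6 in mESC, 18 to 21.7 in FL-LSKCD201+ and 7.43 to 8.24 in BM-LSKCD201+. Fn1, most of the D5-LSKCD201+ sum, was at 258 there against 59.6 in the CD201- fraction. Acta2 (39.4 against 143), Pdgfra (0.676 against 2.61) and Pdgfrb (1.3 against 2.19) went the other way. The remaining markers had higher means in D5-LSKCD201+. The part of mesenchymal cells in the Forkhead differences was not tested.

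Foxc1 and Foxf1 had the same highest group at levels near the filter. Foxc1 read 0.907, 1.11 and 1.24 FPKM in D5-LSKCD201+ against 0.459, 0.398 and 0.434 in the CD201- fraction, and was listed at 0 in all BM-LSKCD201+ libraries; its GC-rich promoter window is printed above. Foxf1 read 1.28, 2.06 and 2.21 against 0.940, 0.463 and 1.05, and was listed at 0 in all FL-LSKCD201+ libraries. Neither was called between the fractions, with log2 differences of 0.54 for Foxc1 (limma adjusted p = 0.00129) and 0.65 for Foxf1 (limma adjusted p = 0.0155), although replicates did not overlap. With a pseudocount of 0.1 in place of 1, the differences were 1.15 and 1.12 and both passed the fold threshold. The D5-LSKCD201- libraries were above those of mESC for all 3 genes, but the means were too low for a test.

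Against the other groups, Foxc1, Foxc2 and Foxf1 were called higher in D5-LSKCD201+ than in mESC (log2 1.01, 2.93 and 1.40) and in BM-LSKCD201+ (1.06, 2.80 and 1.42). With the SoxF genes these made 6 of 7 members higher than in mESC, where 19.5% of all genes were, and all 7 had separated libraries, against 86.1%. Of these 6, Sox7, Foxc1, Foxc2 and Foxf1 passed the filter through D5-LSKCD201+ alone, so nothing is read from this count. Over fetal liver, Foxc2 and Foxf1 were called, while Foxc1 differed by 0.995 and missed the fold threshold. It passed the threshold without FL-LSKCD201+ replicate 3 (1.01), after quantile normalization (1.11), after rescaling to equal sums (1.05) and with a pseudocount of 0.1 (3.03). No log2 value against a group listed at 0 is a measured fold, since it is set by the pseudocount. The call of Foxc1 over mESC was lost without mESC replicate 2 or 3 (both 0.99). With a filter at 1 FPKM, neither Foxc1 nor Foxf1 was tested against mESC, FL-LSKCD201+ or BM-LSKCD201+, so their calls rest on the lower filter.

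Their chromosomal neighbours were not all low. Mthfsd, between Foxf1 and Foxc2, had means of 35.6 FPKM in the CD201+ fraction, 19.8 in the CD201- fraction and 13.8 in mESC, and Foxl1, the Forkhead gene 9045 bases beyond Foxc2, was at 0.235 or less in every sorted group. Foxf2, the Forkhead gene 175230 bases from Foxc1, was at 0.158 in the CD201+ and 0.696 in the CD201- fraction. Gmds, 7103 bases beyond Foxc1, was at 86.1 and 23.1.

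In the total cells none of these 3 genes was called. Foxc1 read 7.14, 6.65 and 2.42 FPKM in 3D+OP9 and 4.84, 3.75 and 2.4 in gelatin (log2 0.39, limma adjusted p = 0.562). Foxc2 read 6.28, 7.55 and 1.95 against 3.2, 1.58 and 1.15 (log2 0.99, SE 0.42, limma adjusted p = 0.216). Foxf1 read 8.06, 8.41 and 5.9 against 9.57, 4.2 and 5.08 (log2 0.27, limma adjusted p = 0.598). All 3 overlapped between the cultures, with 3D+OP9 replicate 3 the lowest of its group each time. Without that library Foxc2 was called higher (log2 1.47, limma adjusted p = 0.0132). The summed stromal markers of the 3D+OP9 libraries were 517, 527 and 358 FPKM for replicates 1 to 3, and those of gelatin 383, 319 and 259, so 3D+OP9 replicate 3 was also the lowest of its group there. Most of that fall lay in Fn1 (383, 368 and 230), whereas Col1a1 (22, 23.6 and 26.4), Col1a2 (8.82, 10.3 and 13.4) and Thy1 (2.95, 2.3 and 9.13) were highest in replicate 3. The same library stood apart in the 10 pluripotency markers, which summed to 963, 960 and 1885 FPKM in the 3D+OP9 replicates and to 1319 to 1407 on gelatin, with Utf1 at 39.5, 41.6 and 299. The part of stromal or pluripotent cells in the Forkhead levels was not tested.

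Of 34 mesoderm genes linked to Foxc and Foxf factors, 25 were tested between the day 5 fractions, and 4 were called higher in D5-LSKCD201+ and 8 lower, beside 10.8% and 13.9% of all genes, with a median of -0.31 beside -0.12. Hand2, a heart and limb mesoderm factor, was higher (13.9 ± 0.407 against 1.52 ± 0.104 FPKM, SD, n = 3; log2 2.57). The early mesoderm gene Mesp1 (0.258 against 10.9 FPKM, log2 -3.25) and Hand1 (-2.26) were among the lower genes. In the total cells 5 of 28 were called higher in 3D+OP9 and none lower, beside 2.11% and 0.509% of all genes, with a median of 0.34 beside 0.01. These were Hand2 (2.09), the integrin gene Itgb3 (1.97), Snai2 (1.13), the Hedgehog receptor gene Ptch1 (1.10) and Prrx1 (1.07), a mesenchyme factor that is also among the stromal markers.

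Among 19 other Forkhead genes tested between the fractions, none was called higher in D5-LSKCD201+ and 7 were called lower, beside 10.8% and 13.9% of all genes, with a median of -0.25. The lower genes included Foxq1 (0.425 against 20.5 FPKM, log2 -3.77), the endoderm factors Foxa2 (-3.50) and Foxa1 (-2.90), and Foxh1, a partner of Nodal signalling in early embryos (9.40 against 78.1 FPKM, log2 -2.93). No member of the Forkhead set was lower there. In the total cells 1 of 26 was called, Foxi3, lower in 3D+OP9 (-1.44), beside 0.509% of all genes called lower. By mean level Foxo1 ranked among the 5 highest Forkhead genes in D5-LSKCD201+ (7.17 FPKM), after Foxn3 (18), Foxp1 (12.4), Foxh1 (9.4) and Foxm1 (7.47). In BM-LSKCD201+ the leading ones were Foxp1 (77.5), Foxn3 (48.4) and Foxo3 (29.6).

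**Figure D5:**
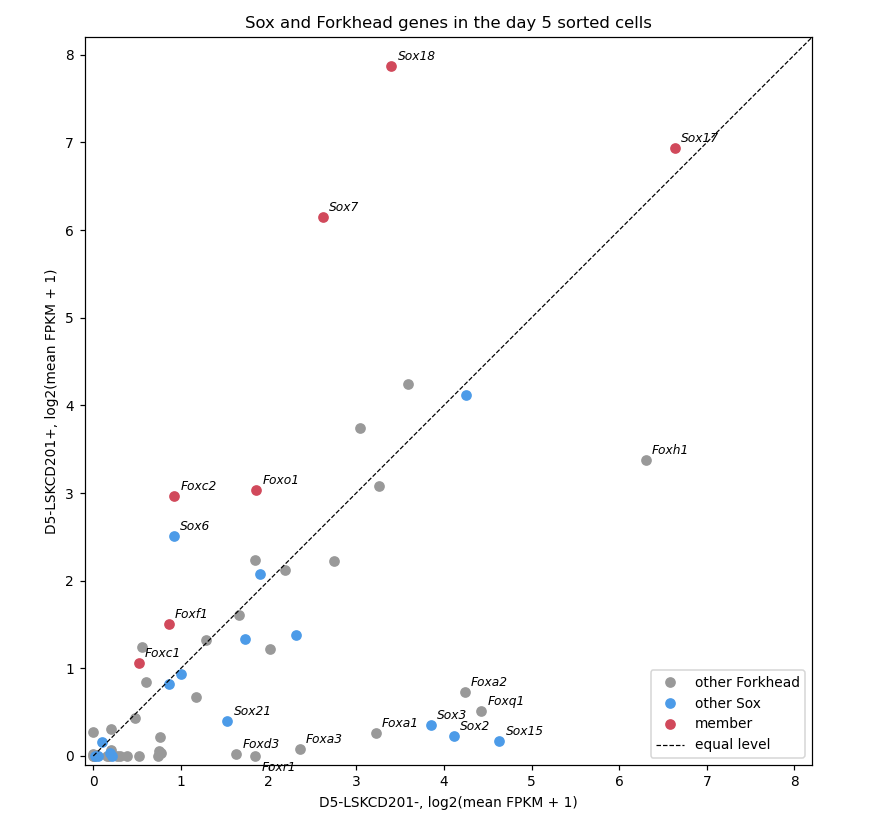
Mean level of every Sox and Forkhead gene of the sorted-cell table in D5-LSKCD201- (horizontal) and D5-LSKCD201+ (vertical), both as log2(mean FPKM + 1) over 3 libraries, with a dashed line at equal levels. All 7 members lie above the line, with Sox17 nearest to it, while Sox15, Sox2, Foxq1, Foxa2 and Foxh1 lie far below it.

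Foxo1 was the only member above 1 FPKM in all 21 libraries, and the only one that lay on opposite sides of mESC in the day 5 fractions. It read 7.10, 7.18 and 7.22 FPKM in the CD201+ fraction, 3.05, 1.68 and 3.17 in the CD201- fraction, 3.87, 4.17 and 4.43 in mESC, 4.93, 3.46 and 3.65 in FL-LSKCD201+ and 3.35, 3.80 and 4.02 in BM-LSKCD201+. Among the 15 sorted-cell libraries, the CD201+ fraction was above all others and the CD201- fraction below all others, and the 3 groups between had overlapping values. Between the day 5 fractions the difference was 1.20 (SE 0.18, limma adjusted p = 0.000712), called higher in D5-LSKCD201+. Without D5-LSKCD201- replicate 2, the lowest library, it was 0.99 with a limma adjusted p of 9.85e-06, just under the fold threshold. That library, in which Foxc2 and Foxf1 were also lowest of their group, stood apart in other genes too, with Klf2 at 30.4 FPKM against 111 and 137 in the other D5-LSKCD201- libraries, Gata4 at 15.2 against 41.5 and 41.2, Col1a1 at 8.02 against 24.9 and 25.7 and the globin gene Hbb-bh1 at 84.1 against 34 and 37.6. Whether this bears on the Foxo1 level was not tested. Over mESC, FL-LSKCD201+ and BM-LSKCD201+ the D5-LSKCD201+ level was 0.67, 0.72 and 0.79 higher, below the fold threshold, with limma adjusted p = 1.64e-05, 0.00158 and 5.98e-05. D5-LSKCD201- was 0.53 below mESC (limma adjusted p = 0.0395). The limma adjusted p was 0.0775 with no filter and 0.0783, 0.0997 and 0.115 without mESC replicate 1, 2 or 3. Without D5-LSKCD201- replicate 2 the difference from mESC was -0.326 (limma adjusted p = 0.0118). The differences from fetal liver (-0.48, limma adjusted p = 0.0772) and bone marrow (-0.40, limma adjusted p = 0.083) did not pass. Without a library they ran from -0.593 to -0.276 and from -0.516 to -0.199. Gm20402, the antisense gene that overlaps Foxo1, had means of 2.03 FPKM in the CD201+ and 0.812 in the CD201- fraction, and its part in the Foxo1 values was not tested.

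In the total cells Foxo1 read 8.32, 7.57 and 10.43 FPKM in 3D+OP9 and 8.0, 10.11 and 8.48 in gelatin, a difference of -0.02 (SE 0.14, limma adjusted p = 0.957) with overlapping values. The sign turned when 3D+OP9 replicate 1 or 2 or gelatin replicate 2 was left out (0.01 to 0.07).

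Other FOXO genes followed another order. Foxo3 had means of 29.6 FPKM in BM-LSKCD201+, 17 in FL-LSKCD201+, 3.04 in D5-LSKCD201-, 2.01 in mESC and 1.33 in D5-LSKCD201+, and Foxo4 stayed at or below 0.659. Of 43 genes of the FOXO axis (AKT pathway members and known FOXO targets), 39 were tested between the day 5 fractions, and 5 were called higher in D5-LSKCD201+ and 4 lower, with a median of 0.03 beside -0.12. These counts were close to the 10.8% and 13.9% of all genes, so nothing is read from them about the list, and the genes that follow are single genes. S1pr1, a receptor of endothelial and blood cells, was higher (84.2 ± 3.04 against 4.37 ± 0.425 FPKM, SD, n = 3; log2 3.99), as were the redox gene Txnip (2.39) and the pseudokinase gene Trib1 (1.52). The growth arrest gene Gadd45a was lower (-1.40). In the total cells 2 of 40 were called higher in 3D+OP9, beside 2.11% of all genes, Klf2 (144 against 34.4 FPKM, log2 2.02), which is known both in flow-exposed endothelium and in pluripotent cells, and S1pr1 (1.49). Against BM-LSKCD201+, 5 of 42 were called higher in D5-LSKCD201+ and 23 lower, beside 17.5% and 27.2% of all genes, with a median of -1.14 beside -0.23.

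Across the 15 sorted-cell libraries, the members' patterns were compared by Pearson's r of log2(FPKM + 1), as a description of 5 groups of 3 libraries and not of independent samples. Sox7 ran closest to Foxc1 (r = 0.988) and Foxc2 (0.980) among the members. Sox17 and Sox18 had r = 0.730 with each other, and Foxo1 had r = 0.180 with Sox17 and 0.700 with Sox18. Among 14457 genes, those most like Sox7 were AV026068 (r = 0.997), Hand2, 1810011O10Rik, Bace2 and Gm266, and 496 genes had r above 0.9. Sox17 was most like Mogat2 (0.993; mean levels of 80.2 and 64.3 FPKM in the CD201+ and CD201- day 5 fractions), Tnni1, Rpn2, Gpm6b and Timp3, with 203 genes above 0.9. Sox18 was most like Selenof (0.982), Hopx, Lipt2, Rasip1 (0.974; 482 and 21.2 FPKM) and Atp1b3.

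For the Forkhead members, Foxc1 was most like the fibrillin gene Fbn2 (r = 0.990), the collagen gene Col5a2, AV026068, Sox7 and 1810011O10Rik. Foxc2 was most like another fibrillin gene, Fbn1 (0.993; 13.8 and 1.35 FPKM), Igfbp5, Flrt2, Mall and Dysf. Foxf1 was most like Sema3f (0.987), Ccnjl, Chst1, Fbn2 and the apelin receptor gene Aplnr (111 and 12.6 FPKM). Foxo1 was most like Fam214b (0.978), Ap1b1, Homer3, Atp6v0d1 and Mtss1l, and only 9 genes had r above 0.9 with it, against 135 to 496 for the other members. The genes named depend on the measure. By Spearman's rho the 5 closest genes shared 0 of 5 with those given for Sox7, Foxc1, Foxc2 and Foxf1, and 2 of 5 for Sox17, Sox18 and Foxo1.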

How the data were processed

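RNA of sorted cells was extracted with TRIzol, made into libraries with the VAHTS mRNA-seq v2 kit and sequenced as 150-bp paired reads. Per the labels and the study's methods, reads were aligned to GRCm38 with HISAT2 2.0.5 and assembled with StringTie 1.3.3, and Cuffdiff 1.3.0 served for the authors' differential tests, which were not used here; the submitters' notes name another mouse build as well, and 99.5% of the sorted-cell gene IDs were in GENCODE M21. The authors deposited FPKM values, which divide fragments by transcript length and library size, in a coculture table (rounded to 2 decimals) and a sorted-cell table, each normalized on its own. FPKM keep no depth, so counting error could not be given.

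The 7 members and all gene lists were chosen with earlier results of these data known. Groups came from the labels. Per comparison, 3 libraries against 3, genes averaging 0.5 FPKM or more were fitted with limma 3.58.1 (R 4.3.3, trend, two-sided) on log2(FPKM + 1), with Benjamini-Hochberg adjustment over all genes tested; 11 comparisons were made. An exact permutation test of 3 against 3 cannot go below p = 0.1 and was not used. Lists are given as counts and medians. The fit was tested on simulated data. Named were all members, the 5 genes most like each, and up to 4 called genes of each list with the largest differences, of which some are not reported here; Rbpj, Rasip1 in fetal liver, the neighbouring and overlapping genes and the other FOXO genes were added after their values were seen. The other settings tried were a smaller pseudocount (0.1), both looser and stricter filtering (none, 1 FPKM), quantile normalization, rescaling to equal sums (TPM), a constant prior variance, a replicate block, 1 fit over all 5 sorted groups, adjusted p alone and leaving out each library. Replicate numbers were shared by all groups. Same-numbered FL-LSKCD201+ and BM-LSKCD201+ libraries deviated together (r = 0.159 to 0.242 for the 3 pairs), from the data and not from the labels, and there the replicate block gave 2607 called genes against 2581 and changed no member's call.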

Additional observations from a re-analysis of the deposited data

Results flagged for a closer look

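Foxo1 lay on opposite sides of mESC in the day 5 fractions, with neither difference from mESC large enough for a call (0.67 and -0.53 on the log2 scale). For D5-LSKCD201- against mESC the limma adjusted p was 0.0395 and ran from 0.00207 to 0.115 over the alternatives. It was above 0.05 with no filter and without any one mESC library. The difference itself ran from -0.779 to -0.326, with -0.326 found without D5-LSKCD201- replicate 2. All 3 D5-LSKCD201+ libraries (7.10 to 7.22 FPKM) lay above the 3 mESC libraries (3.87 to 4.43 FPKM), and all 3 D5-LSKCD201- libraries (1.68 to 3.17 FPKM) lay below them. The difference between these effects equals the difference between the fractions, which limma gave as 1.20 on the log2 scale (SE 0.18, adjusted p = 0.000712), and as 0.99 without D5-LSKCD201- replicate 2. Over all its alternatives the difference ran from 0.99 to 1.46, with adjusted p from 8.61e-06 to 0.00447.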

How the results depend on the processing

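Of 56 member results tested, 41 kept their call and direction under every alternative in which they were tested. Over all 758 values, 727 stayed as reported, 19 gained a call, 7 lost one and 5 changed sign. A replicate block, a constant prior variance, no filter and the joint fit of the 5 sorted groups changed no member's call. The filter at 1 FPKM changed none of the 48 results it tested but left 8 untested, 5 of them called. These 5 were Foxc1 in D5-LSKCD201+ over mESC and bone marrow and Foxf1 over mESC, fetal liver and bone marrow. When a D5-LSKCD201+ library was left out, Foxc1 was not tested in that fraction against mESC, fetal liver or bone marrow. With a pseudocount of 0.1, Sox17 passed the fold threshold in 3D+OP9 against gelatin (1.36), as did Foxc1 (1.15) and Foxf1 (1.12) between the day 5 fractions; so did Sox18 in D5-LSKCD201- over mESC (1.05), Foxc1 in D5-LSKCD201+ over fetal liver (3.03), Foxc2 in D5-LSKCD201- over bone marrow (2.17) and Sox18, lower, in bone marrow against mESC (-1.26). Rescaling to equal sums took Sox17 (1.01), Foxc1 over fetal liver (1.05) and Sox18 in bone marrow (-1.06) past it. Foxo1 changed sign without a library in 3D+OP9 against gelatin (0.011, 0.071 and 0.071), in fetal liver against bone marrow (range -0.05 to 0.156) and in fetal liver against mESC (range -0.178 to 0.028), and was not called in any of these. Without a library, Sox7 in 3D+OP9 against gelatin ran from 0.93 to 1.35 and Sox17 from 0.82 to 1.14. In the same comparison Foxc1 ran from 0.168 to 0.794, Foxc2 from 0.70 to 1.47, Foxf1 from 0.064 to 0.575 and Foxo1 from -0.136 to 0.071. Between the fractions Foxo1 ran from 0.99 to 1.31. Quantile normalization moved the median of all genes by over 0.1 in several comparisons, from -0.12 to -0.01 between the day 5 fractions and at most from 0.23 to -0.06 (bone marrow against mESC), where 3483 genes were then higher and 3789 lower in place of 4332 and 3153. It gave 1104 and 741 in place of 1476 and 473 for D5-LSKCD201- against mESC and 2890 and 3007 in place of 2406 and 3753 for D5-LSKCD201+ against bone marrow. It turned no member's direction, but it called Sox18 lower in bone marrow than in mESC (-1.35), Foxo1 higher in D5-LSKCD201+ than in bone marrow (1.15) and Foxc1 higher in D5-LSKCD201+ than in fetal liver (1.11).

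The number of called genes with adjusted p alone, without the fold threshold, was 891 in place of 339 for 3D+OP9 against gelatin, 9349 in place of 3379 between the day 5 fractions, and, for D5-LSKCD201+, 11496 against mESC, 9823 against FL-LSKCD201+ and 11486 against BM-LSKCD201+. For D5-LSKCD201- it was 7418 against mESC, 9680 against FL-LSKCD201+ and 11570 against BM-LSKCD201+, and it was 7446 for FL-LSKCD201+ against BM-LSKCD201+, 10813 for FL-LSKCD201+ against mESC and 12261 for BM-LSKCD201+ against mESC. For 3D+OP9 against gelatin it was 531 with a pseudocount of 0.1, and 209 to 444 without a library, lowest without gelatin replicate 2. The replicate block gave 379 and 3381 calls in these first 2 comparisons. Deviations of same-numbered 3D+OP9 and gelatin libraries had r = 0.182, 0.072 and 0.291, and the labels do not say whether they were paired. Apart from fetal liver and bone marrow, no comparison had r above 0.1 in all 3 pairs. The cause of these changes in count was not tested. Low FPKM limit Foxc1 and Foxf1 in particular.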
